A study of Arabidopsis thaliana with 9 samples.

Results

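Heated seedlings of SR45a-1a-OE, which overexpress the splicing factor form SR45a-1a, were compared with equally heated wild type (WT) across all measured genes of Arabidopsis thaliana. The comparison takes the 3 SR45a-1a-OE and the 3 WT libraries, 6 of the 9 in the series; the other 3 come from the sr45a mutant and were used as a second point of comparison. Every seedling was 2 weeks old, was grown on MS medium of reduced strength in long days and was held at 45 °C for 3 h, so that SR45a-1a-OE, sr45a and WT differ in genotype and share the heat. The series asks how splicing variants of SR45a bear on heat tolerance, and SR45a-1a is the variant overexpressed here. With no unheated library in the comparison, a difference is one between heated genotypes and not a response to heat. The labels speak of overexpression lines without giving the promoter, the number of lines or whether each library is a line, and they do not say which annotated transcript SR45a-1a is. They do not say either whether the replicates came from separate cultures, so a p-value covers only how far these libraries varied among themselves, which can be technical variation. The tissue is the whole seedling, and less RNA per cell cannot be told apart from fewer cells of a type.

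SR45a is a serine/arginine-rich (SR) protein with an RNA recognition motif. SR proteins bind pre-mRNA and help the spliceosome choose exons and splice sites, and the transcripts of many of them are themselves alternatively spliced under stress. In heat, plants switch on heat shock factors, which induce small heat shock proteins and larger chaperones that hold and refold unfolding proteins, while growth and cell wall synthesis are restrained.

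The libraries held 21522098 to 21793346 gene counts in SR45a-1a-OE and 21610270 to 21864604 in WT. On the first principal component of the 6 libraries, which held 53.11% of the variance, SR45a-1a-OE replicates 1, 2 and 3 lay at −43.16, −40.52 and −12.91, and the WT replicates at 33.61, 33.05 and 29.92. SR45a-1a-OE replicate 3 thus stood nearest to WT. On the first component of all 9 libraries (36.58%), sr45a replicate 3 lay at −4.7, apart from sr45a replicates 1 and 2 at 25.35 and 22.24 and on the side of SR45a-1a-OE, at −48.28, −47.02 and −16.21, while WT lay between 20.87 and 25.27. Levels are given in CPM, counts scaled to a common library size after TMM normalisation, for replicates 1, 2 and 3 in that order. A gene is said to rise or fall in SR45a-1a-OE where edgeR's quasi-likelihood test gave a Benjamini-Hochberg adjusted p under 0.05 over all 20103 tested genes.

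SR45a (AT1G07350, chromosome 1, 2257384–2260187, minus strand) had 1172, 1099 and 1009 CPM in SR45a-1a-OE, against 1.9, 4.55 and 7.26 CPM in sr45a, and 433, 401 and 419.6 CPM in WT. The levels followed the labels, with no overlap between any of the genotypes. The log2 fold change over WT was 1.39 (SE 0.27; edgeR adjusted p = 0.00816). Nearly all of the annotated SR45a signal was AT1G07350.1, at 306, 318 and 285 FPKM in SR45a-1a-OE and 148, 135 and 134 FPKM in WT, or 96.2 ± 0.669% and 94.7 ± 0.761% of the FPKM of the 6 transcripts (SD, n = 3 each). Transcripts are estimates with a wider spread, and this difference did not pass among transcripts (log2 fold change 1.16, SE 0.29, adjusted p = 0.192). The gene as a whole was listed higher, at 553, 555 and 503 FPKM in SR45a-1a-OE and 226, 204 and 208 FPKM in WT. The shares are thus of the 6 annotated transcripts and not of the whole gene signal. The reason for the gap was not tested. The following stretches, read from RefSeq TAIR10.1 on the minus strand of chromosome 1, show why the transcripts encode different proteins. Both begin with the last 30 bases of the same exon (chr1:2259003-2259032). In AT1G07350.1 the next exon in line follows (chr1:2258573-2258602; capitals mark the bases at the junction), and in AT1G07350.2 an extra exon follows (chr1:2258816-2258845) that reaches a stop codon, marked by capitals.
AT1G07350.1: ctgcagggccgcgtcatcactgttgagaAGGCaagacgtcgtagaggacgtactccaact
AT1G07350.2: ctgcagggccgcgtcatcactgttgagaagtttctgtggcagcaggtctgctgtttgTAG
The coding length is 1149 bases in AT1G07350.1 and 390 bases in AT1G07350.2. AT1G07350.2 stood at 5.31, 1.48 and 6.81 FPKM in SR45a-1a-OE and at 0.00747, 0.356 and 0.238 FPKM in WT, groups that did not overlap, but the difference did not pass (log2 fold change 4.53, SE 1.69, adjusted p = 0.357). AT1G07350.3, with the same coding length, ran the other way at 0.0209, 2.62 and 0.0138 FPKM in SR45a-1a-OE and 0.506, 3.76 and 3.29 FPKM in WT, and did not pass either (−1.52, SE 1.75, adjusted p = 0.848).

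Of the 20103 genes 3084 passed in SR45a-1a-OE against WT, 15.3% of those tested. In SR45a-1a-OE 1358 genes rose, 6.76% of those tested, and 1726 fell, 8.59%. Most differences were modest. The median log2 fold change was 0.63 among the genes that rose and −0.65 among those that fell, against 0.01 over all tested genes, and 1297 of the called genes changed by less than 1.5-fold. At the other end 316 genes rose and 364 fell by 2-fold or more, and 46 rose and 19 fell by 4-fold or more. The counts of the 2 groups did not overlap for 7146 of the tested genes, or 35.5%, and for 3043 of those called.

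The number of calls leaned on single libraries. It was 975 without SR45a-1a-OE replicate 1, and 1410, 1060 and 1836 without WT replicate 1, 2 and 3. It was 3944 without SR45a-1a-OE replicate 3. A core of 812 genes, of which 291 rose and 521 fell, passed in all 6 fits that each left out 1 library. Of those 812 genes 315 changed by 2-fold or more.

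The graded position of the libraries was visible in the called genes as a whole. The genes that rose had a median log2 ratio to the WT mean of 0.72, 0.61 and 0.44 in SR45a-1a-OE replicates 1, 2 and 3, and of 0.14, 0.19 and 0.36 in the sr45a replicates. For the genes that fell these medians were −0.72, −0.67 and −0.49 in SR45a-1a-OE, and −0.11, −0.19 and −0.34 in sr45a. The genes were chosen by their difference between these SR45a-1a-OE and WT libraries, so the distance of SR45a-1a-OE from WT follows from that choice. The sr45a medians use the same WT mean, so part of their shift can follow from it too. SR45a-1a-OE replicate 3 was closest to WT in its group and sr45a replicate 3 farthest from WT in its own, although SR45a itself was at 1009 CPM in the first and 7.26 CPM in the second. Set against sr45a directly, 1459 genes differed in SR45a-1a-OE (7.26% of those tested), 565 of them higher (2.81%) and 894 lower (4.45%). Of the genes called against WT, 268 that rose were also higher than in sr45a and 590 that fell were also lower than in sr45a; both comparisons use the same SR45a-1a-OE libraries. The count of 1459 was 300, 967 and 2653 without SR45a-1a-OE replicate 1, 2 and 3, and 270, 417 and 2310 without sr45a replicate 1, 2 and 3. Without the third replicates of both, which stood apart, 4160 genes differed between SR45a-1a-OE and sr45a and 4524 between SR45a-1a-OE and WT; these fits were chosen after seeing the data.

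**Figure D1:**
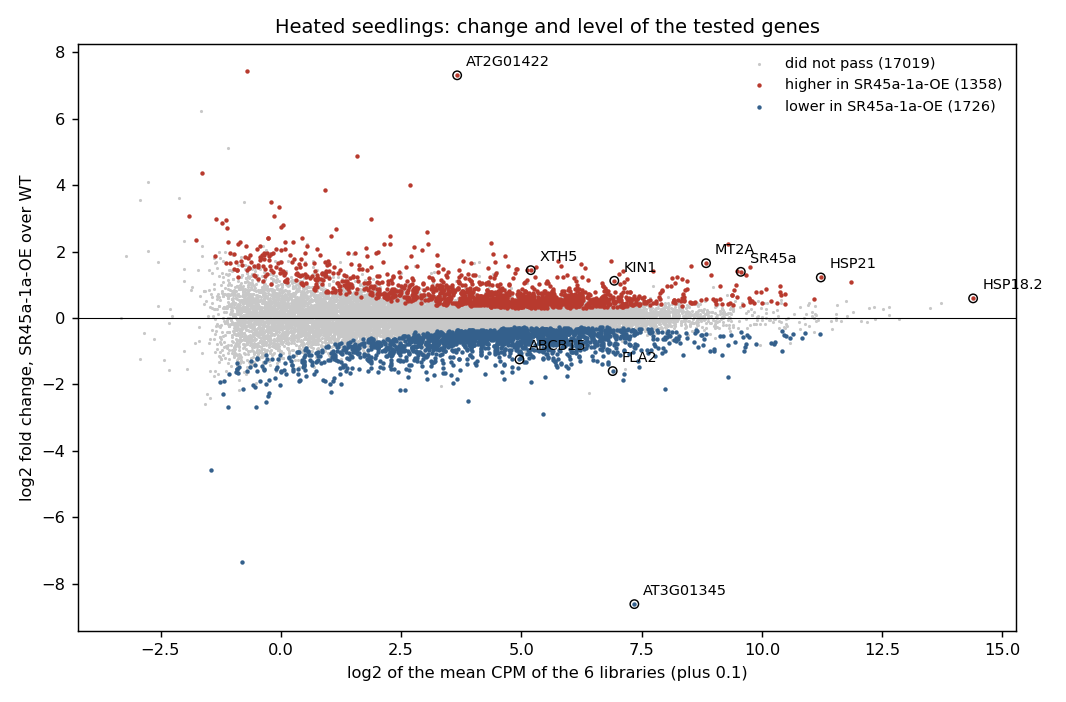
Log2 fold change of SR45a-1a-OE over WT (vertical axis) against the log2 mean CPM of the 6 libraries (horizontal axis), 1 point per tested gene. Red points mark the 1358 genes that rose, blue points the 1726 that fell and grey points the others; circled genes are named in the text, with AT2G01422 and AT3G01345 far outside the cloud.

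A pair of loci changed almost from absence to presence or the reverse. AT2G01422, a non-coding RNA gene (chromosome 2, 183940–184734, plus strand), had 25.9, 23.4 and 25.8 CPM in SR45a-1a-OE, against 0.971, 0.899 and 1.19 CPM in sr45a and 0.133, 0.184 and 0.139 CPM in WT. It stood above both other genotypes in every SR45a-1a-OE library. The log2 fold change was 7.31 over WT (SE 0.20, adjusted p = 4.30e-09) and 4.61 over sr45a (adjusted p = 4.37e-08). AT3G01345, annotated as an expressed protein gene (chromosome 3, 129138–130749, plus strand), was the mirror image. It had 0.596, 0.832 and 1.02 CPM in SR45a-1a-OE, against 3.37, 2.38 and 5.47 CPM in sr45a and 321, 337 and 317 CPM in WT. Both altered genotypes were near the bottom of the scale while WT was not, and the log2 fold change in SR45a-1a-OE was −8.62 against WT (SE 0.28, adjusted p = 1.15e-08) and −2.18 against sr45a (adjusted p = 0.00285). AT1G75945, a hypothetical protein gene, had 4.17, 4.99 and 7.56 CPM in SR45a-1a-OE, against 0.324, 0.529 and 0.199 CPM in sr45a and 0.266, 0.138 and 0.139 CPM in WT (log2 fold change 4.89 over WT, SE 0.40, adjusted p = 2.10e-04). It and AT2G01422 were the 2 genes with a mean of 5 CPM or more in one group and under 0.5 CPM in every library of the other. The non-coding RNA AT3G05945 lay just outside that limit, at 13, 7.08 and 15.7 CPM in SR45a-1a-OE, against 13.6, 14.9 and 9.90 CPM in sr45a and 0.531, 0.781 and 0.882 CPM in WT, so it was high in both altered genotypes (log2 fold change of SR45a-1a-OE over sr45a −0.10, adjusted p = 0.844). ELIP2 lay just outside it as well.

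Among genes that changed at least 2-fold, kept their call without each of the 6 libraries, did not overlap between the groups and averaged 20 CPM or more in the higher group, 56 rose and 96 fell, and the 12 of smallest p in each direction are described here. AT2G01422 and AT3G01345 are among them. XTH5, a xyloglucan endotransglucosylase gene whose product cuts and rejoins wall polysaccharides, had 54.5, 57.6 and 48.1 CPM in SR45a-1a-OE, against 29.0, 25.2 and 32.9 CPM in sr45a and 18.5, 20.3 and 20.3 CPM in WT. Its 3 genotypes did not overlap (log2 fold change over WT 1.44, SE 0.12, adjusted p = 2.10e-04; over sr45a 0.88, adjusted p = 0.00202). MT2A, which encodes a metal-binding metallothionein, had 1011, 535 and 538 CPM in SR45a-1a-OE, against 289, 383 and 381 CPM in sr45a and 182, 246 and 237 CPM in WT. Every SR45a-1a-OE library exceeded every other, replicate 1 by the widest margin (log2 fold change over WT 1.65, SE 0.24, adjusted p = 0.00335; over sr45a 0.98, adjusted p = 0.0287). KIN1, a small cold- and dehydration-induced protein gene with the close paralog KIN2, had 202, 159 and 141 CPM in SR45a-1a-OE, against 65.9, 70.6 and 79.6 CPM in sr45a and 81.8, 66.0 and 82.4 CPM in WT. Here sr45a lay with WT and SR45a-1a-OE alone was high (log2 fold change over WT 1.12, SE 0.14, adjusted p = 0.00251; over sr45a 1.21, adjusted p = 0.00133).

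ALMT1 and CA2 of the 12 were high in SR45a-1a-OE replicates 1 and 2 and less so in replicate 3. ALMT1, the aluminium-activated channel that releases malate from roots, had 66.8, 66.3 and 41.7 CPM in SR45a-1a-OE, against 27.0, 30.6 and 43.1 CPM in sr45a and 19.8, 19.8 and 20.7 CPM in WT. CA2, a carbonic anhydrase gene, had 785, 731 and 573 CPM in SR45a-1a-OE, against 414, 404 and 601 CPM in sr45a and 287, 262 and 313 CPM in WT. For both, sr45a replicate 3 stood above SR45a-1a-OE replicate 3, while no WT library came near (log2 fold changes over WT 1.53 and 1.28, SE 0.20 and 0.17, adjusted p = 0.00251 and 0.00287). The early nodulin-like gene ENODL16 rose by 1.47, AT1G21550, with a calcium-binding EF-hand, by 1.70 and AT1G33350, of the pentatricopeptide repeat family, by 2.25, with SE of 0.16, 0.23 and 0.29. The remaining ones, AT1G15230, AT2G21820 (a seed maturation protein gene) and AT1G58150, rose by 1.04, 1.11 and 1.01.

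Among the 12 that fell, ATSDI1 (AT5G48850), a sulfur-deficiency-induced gene, had 9.49, 8.51 and 8.81 CPM in SR45a-1a-OE, against 9.80, 6.82 and 6.02 CPM in sr45a and 24.2, 31.2 and 30.5 CPM in WT. It was low in both altered genotypes (log2 fold change against WT −1.68, SE 0.17, adjusted p = 0.00114; against sr45a 0.24, adjusted p = 0.432). SULTR1;2, the main sulfate uptake transporter of roots, had 78.4, 77.6 and 81 CPM in SR45a-1a-OE, against 184, 165 and 196 CPM in sr45a and 194, 171 and 139 CPM in WT. It was low in SR45a-1a-OE alone, with 3 libraries within a few CPM of each other (−1.09 against WT, SE 0.12, adjusted p = 0.00156; −1.20 against sr45a, adjusted p = 7.68e-04). CYP83A1, an enzyme of aliphatic glucosinolate synthesis, followed the same pattern at 13, 16.9 and 14.4 CPM in SR45a-1a-OE, against 27.8, 28.2 and 24.4 CPM in sr45a and 30.2, 30.8 and 28.1 CPM in WT (−1.01 against WT, SE 0.12, adjusted p = 0.00156). LAC7, a laccase gene, had 29.6, 27.2 and 38.0 CPM in SR45a-1a-OE, against 60.5, 59.6 and 57.1 CPM in sr45a and 93.6, 78.2 and 70.5 CPM in WT, with sr45a between the other genotypes (−1.35 against WT, SE 0.14, adjusted p = 0.00114).

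The rest of the 12 fell by 1.10 to 1.70 on the log2 scale. They were AT5G14920 (a gibberellin-regulated family gene, −1.70), FLA2, AT1G29660 (a GDSL lipase gene, −1.44), AT5G52882 (−1.26), the transporter gene ABCB15 (−1.25), AT2G47440 (−1.10) and PHV (−1.10), which encodes a homeodomain-leucine zipper factor of leaf polarity. PHV had 87.6, 91.1 and 109 CPM in SR45a-1a-OE, against 153, 153 and 118 CPM in sr45a and 233, 189.7 and 195 CPM in WT. Of these 24 leading genes none lost its call under any of the 18 alternatives tried; survival without each of the 6 libraries was a condition of being named.

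**Figure D2:**
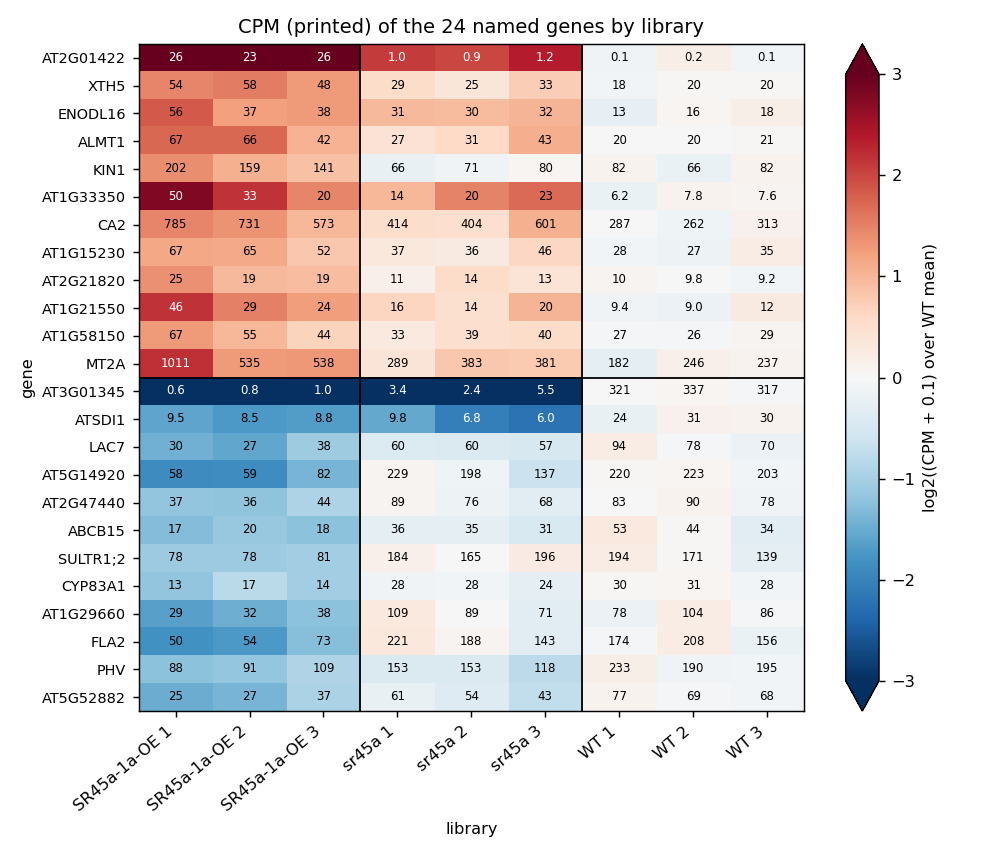
CPM of the 24 leading genes (12 that rose above the line, 12 that fell below it) in each of the 9 libraries; the printed number is CPM and the colour the log2 ratio to the WT mean. SR45a-1a-OE stands on the left, sr45a in the middle and WT on the right. The mean of sr45a lies between those of the others for 19 of the 24 genes, KIN1, ATSDI1, SULTR1;2, AT1G29660 and FLA2 being the exceptions. The genes were picked for a large difference between SR45a-1a-OE and WT, so another group can fall between them for that reason alone.

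Small heat shock proteins, which bind unfolding proteins and keep them soluble, were higher in SR45a-1a-OE than in equally heated WT. Of 16 tested genes 9 rose, or 56.2%, against 6.76% of all genes, none fell, and all 16 had a log2 fold change above 0, with a median of 0.68 against 0.01 over all tested genes. The count was 4 without SR45a-1a-OE replicate 1 and 3 without WT replicate 1 or WT replicate 2, with medians of 0.44 to 0.82 over the fits that left out 1 of the 6 libraries. HSP21, the chloroplast member of the family, had 3889, 3660.1 and 2489.7 CPM in SR45a-1a-OE, against 2099, 1871 and 3227 CPM in sr45a and 1505, 1578 and 1233 CPM in WT. It did not overlap between SR45a-1a-OE and WT, and sr45a replicate 3 exceeded SR45a-1a-OE replicate 3 (log2 fold change over WT 1.22, SE 0.22, adjusted p = 0.00666). AT1G53540, a cytosolic member, had 6295, 5401 and 3429.8 CPM in SR45a-1a-OE, against 2899, 2941 and 4936 CPM in sr45a and 2223, 2382 and 2611 CPM in WT (1.07, SE 0.24, adjusted p = 0.0152; lost without SR45a-1a-OE replicate 1, WT replicate 1 or WT replicate 2). HSP18.2 was the most abundant called gene, with 31450.1, 23038 and 22953 CPM in SR45a-1a-OE, against 17496, 17435 and 20375 CPM in sr45a and 14702, 18480.1 and 18223 CPM in WT. Its groups were separate, but the rise of 0.59 (SE 0.17, adjusted p = 0.0413) was lost under 9 alternatives, among them each fit without SR45a-1a-OE replicate 1 or 1 of the WT libraries. Set against sr45a, 2 of the 16 genes were higher in SR45a-1a-OE and none was lower, where 2.81% of all tested genes were higher. The median of the list in sr45a over WT was 0.30. Members of the family are close in sequence, and counts may be shared between paralogs such as AT1G07400 and AT1G59860.

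Heat shock factors, which switch these genes on, held 4 rises and no fall among 17 tested members, with a median of 0.27. The 4 became 7 without SR45a-1a-OE replicate 3. HSFA3 had 91.4, 99.1 and 97.9 CPM in SR45a-1a-OE, against 39.5, 51.7 and 70.3 CPM in sr45a and 42.4, 45.8 and 44.4 CPM in WT; it was uniformly high in SR45a-1a-OE and exceeded sr45a as well (1.12 over WT, SE 0.16, adjusted p = 0.00335; 0.84 over sr45a, adjusted p = 0.0135). HSFA1E also exceeded both, by 1.19 over WT and by 1.01 over sr45a (adjusted p = 0.00605 and 0.0182), and HSFA7B, listed as AT-HSFA7B, by 2.48 and 1.32 (adjusted p = 0.00335 and 0.0361). Over all tested genes 6.76% rose and 8.59% fell. The larger ATP-driven chaperones of the HSP90, HSP70 and HSP101 families held 2 rises and 3 falls among 20, with a median of −0.02. Whether these few calls exceed those shares was not tested. The rises were 6 without SR45a-1a-OE replicate 3, 1 without SR45a-1a-OE replicate 1 or 2 or WT replicate 1 or 3, and 0 without WT replicate 2, while the falls numbered 3 or 4 in all of these. The falls were in HSP81-3 (also called HSP90.3; −1.06), Hsp70-2 (−1.04) and Hsp89.1, a mitochondrial member (−0.54); the first 2 have close paralogs that can share reads.

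The sequence GAANNTTC, the core of the heat shock element that heat shock factors bind, was searched on both strands of the 250 bases before each gene's start in TAIR10.1. It was present in 9.28% of 19961 promoters of tested genes, in 8.54% of those of genes that rose and in 8.45% of those of genes that fell. Of the small heat shock proteins 4 of 16 carried it, and of the heat shock factors 4 of 17. The promoters of HSP21 (chr4:13819972-13820221, minus strand) and HSP17.4 (chr3:16984868-16985117, minus strand) are shown as examples of promoters with it from genes that rose; HSP17.4 had 525, 484 and 331 CPM in SR45a-1a-OE, against 326, 357 and 456 CPM in sr45a and 238, 242 and 259 CPM in WT. Sequences run 5′ to 3′ along the gene's strand, and capitals mark GAANNTTC.
HSP21: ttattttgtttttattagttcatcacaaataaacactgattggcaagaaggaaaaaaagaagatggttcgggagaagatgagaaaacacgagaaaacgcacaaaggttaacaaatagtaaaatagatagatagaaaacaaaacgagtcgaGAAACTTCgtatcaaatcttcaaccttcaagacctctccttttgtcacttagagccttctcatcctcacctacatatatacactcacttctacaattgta
HSP17.4: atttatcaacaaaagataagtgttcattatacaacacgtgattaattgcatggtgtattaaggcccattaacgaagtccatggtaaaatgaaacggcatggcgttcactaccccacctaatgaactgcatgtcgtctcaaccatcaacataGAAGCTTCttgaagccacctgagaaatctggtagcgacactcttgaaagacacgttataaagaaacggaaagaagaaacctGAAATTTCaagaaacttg
HSP21 holds 1 match and HSP17.4 holds 2. A match is a description of the sequence and does not show binding.

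Chaperones and disulfide isomerases of the endoplasmic reticulum (ER), where secreted and membrane proteins fold, moved the other way. Of 28 tested genes 17 fell, or 60.7%, against 8.59% of all genes, and none rose; the median was −0.47. The count was 3 without SR45a-1a-OE replicate 1, 4 without WT replicate 2 and 11 without WT replicate 3, while the median stayed between −0.47 and −0.38 over these fits. The summed level of the 28 genes was 7099, 7902 and 7996 CPM in SR45a-1a-OE, against 10763, 9118 and 8996 CPM in sr45a and 11111, 11168 and 11062 CPM in WT. SHD, the ER member of the HSP90 family, had 1083, 1277 and 1307 CPM in SR45a-1a-OE, against 1707, 1395 and 1431 CPM in sr45a and 1894, 1836 and 1845 CPM in WT (log2 fold change −0.60, SE 0.12, adjusted p = 0.00999). Its groups did not overlap, yet the call was lost without SR45a-1a-OE replicate 1. UNE5, the disulfide isomerase PDIL2-1, kept its call throughout, at 187, 193 and 221 CPM in SR45a-1a-OE, against 290.2, 261 and 217 CPM in sr45a and 296, 311 and 318 CPM in WT (−0.62, SE 0.12, adjusted p = 0.00839). The other members that fell were the HSP70-type chaperones BIP1 and BIP2, the lectin chaperones CNX1, CRT1a and CRT1b, the co-chaperones ATERDJ3B and P58IPK, the glucosyltransferase EBS1, which marks unfolded glycoproteins, the oxidase ERO1, and 6 disulfide isomerases beside UNE5, namely PDIL1-1, PDIL1-2, PDIL1-3, PDIL2-2, PDIL2-3 and PDIL5-3. BIP1 and BIP2 are near-identical and may share reads. Compared with sr45a, 4 of the 28 genes were lower in SR45a-1a-OE and none was higher, where 4.45% of all tested genes were lower. The median of the list in sr45a against WT was −0.16.

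The ER stress element, searched on both strands as CCAAT and CACG with 10 bases of any kind between them, was in 7 of the 28 promoters of this list, or 25%, and in 0.877% of all promoters of tested genes, 1.48% of those of genes that fell and 1.18% of those of genes that rose. The calreticulin gene CRT1a (chr1:21092710-21092959, minus strand) and PDIL1-1 (chr1:7645360-7645609, plus strand) are shown as members that fell and carry it; in both the match lies on the opposite strand, so that the capitals show its reverse complement.
CRT1a: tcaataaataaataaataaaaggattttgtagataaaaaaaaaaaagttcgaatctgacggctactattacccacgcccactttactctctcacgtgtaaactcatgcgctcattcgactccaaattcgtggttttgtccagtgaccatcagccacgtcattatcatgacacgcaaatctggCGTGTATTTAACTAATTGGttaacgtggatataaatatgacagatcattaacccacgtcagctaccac
PDIL1-1: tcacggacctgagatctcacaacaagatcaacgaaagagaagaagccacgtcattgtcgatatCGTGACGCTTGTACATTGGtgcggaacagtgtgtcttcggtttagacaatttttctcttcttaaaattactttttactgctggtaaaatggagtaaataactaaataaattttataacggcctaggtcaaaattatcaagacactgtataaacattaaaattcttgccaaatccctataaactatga
CRT1a had 583, 613 and 699 CPM in SR45a-1a-OE, against 874, 774 and 731 CPM in sr45a and 911, 938 and 942 CPM in WT. The G-box CACGTG was in 12.7% of promoters of genes that rose, 7.09% of those of genes that fell, 6.98% of those of genes that did not pass and 7.37% of all.

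Genes that build and loosen the cell wall were lower in SR45a-1a-OE in several families. Shares that fell were 57.1% of xyloglucan endotransglucosylase, 62.5% of fasciclin-like, 46.2% of cellulose synthase and 33.3% of expansin genes. Among all tested genes 8.59% fell and 6.76% rose. Of 28 tested xyloglucan endotransglucosylase genes, whose enzymes remodel the polysaccharide that tethers cellulose, 16 fell and 1, XTH5, rose, with a median of −0.65. The falls numbered 10 without WT replicate 2 or WT replicate 3, with medians between −0.74 and −0.58. XTH4 had 267, 269 and 325 CPM in SR45a-1a-OE, against 515, 442 and 407 CPM in sr45a and 493, 587 and 502 CPM in WT, with sr45a within the range of WT only in replicate 1 (log2 fold change −0.88, SE 0.13, adjusted p = 0.00335). XTR6 (AT4G25810) had 19.3, 23.7 and 17.5 CPM in SR45a-1a-OE, against 68.9, 72.4 and 59.5 CPM in sr45a and 33.5, 43.1 and 48.4 CPM in WT; it was lowest in SR45a-1a-OE and highest in sr45a (−1.05 against WT, adjusted p = 0.00335; −1.73 against sr45a, adjusted p = 2.73e-04). Over the list 10 genes were lower and 1 was higher in SR45a-1a-OE than in sr45a.

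Fasciclin-like arabinogalactan proteins, surface glycoproteins of expanding and thickening walls, held 10 falls and no rise among 16 tested genes, with a median of −0.79. The count stayed between 7 and 10 over the fits without 1 of the 6 libraries, and 8 of the 16 were also lower than in sr45a. Their summed level was 427, 461 and 602 CPM in SR45a-1a-OE, against 1210.4, 1016 and 806 CPM in sr45a and 1032, 1179 and 1023 CPM in WT. FLA2 had 50.1, 53.8 and 73.3 CPM in SR45a-1a-OE, against 221, 188 and 143 CPM in sr45a and 174, 208 and 156 CPM in WT (−1.60 against WT, SE 0.19, adjusted p = 0.00158; −1.64 against sr45a, adjusted p = 0.00107). FLA9 fell by 1.29 and FLA1 by 1.94 on the same scale, and both were lower than in sr45a too, by log2 fold changes of −1.31 and −1.52.

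Of 13 tested cellulose synthase genes and genes that act with them 6 fell and none rose, with a median of −0.52; 3 fell without SR45a-1a-OE replicate 1. CESA5, a subunit of the complex that makes primary walls, had 58.2, 65.3 and 80.4 CPM in SR45a-1a-OE, against 109.9, 93.3 and 85.1 CPM in sr45a and 131, 137 and 122 CPM in WT (−0.94, SE 0.13, adjusted p = 0.00335). CESA2 and CESA6 of the same complex fell by 0.61 and 0.60, and CESA4 of secondary walls, COB and POM1 were the others. Expansins, which loosen walls in acid, held 7 falls and 2 rises among 21, with a median of −0.26. Their falls numbered 2 without SR45a-1a-OE replicate 1 and 4 without WT replicate 1 or 2, and their rises 0 without WT replicate 1 and 1 without SR45a-1a-OE replicate 1 or 2 or WT replicate 2. EXLA2 had 7.16, 6.52 and 6.54 CPM in SR45a-1a-OE, against 13.4, 14.5 and 12 CPM in sr45a and 10.8, 11.0 and 11.3 CPM in WT (−0.71 against WT, SE 0.12, adjusted p = 0.00522; −0.98 against sr45a, adjusted p = 0.00155).

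Of 10 root hair and epidermis markers 4 fell and none rose, with a median of −0.39. Their summed level was 174 to 258 CPM in SR45a-1a-OE, against 196 to 253 CPM in sr45a and 271 to 308 CPM in WT, none of the 10 was at 0, and their falls numbered 1 without SR45a-1a-OE replicate 1, WT replicate 1 or WT replicate 2 and 2 without WT replicate 3. The 4 are wall genes themselves: LRX1, PRP1, PRP3 and XTH14, the last of which is in both lists. The root hair regulator RHD6 stood at 0.49, the oxidase RHD2 at 0.19 and EXPA7 at 0.16, none of which passed. Of 10 root enzyme and transporter markers 2 rose and 1 fell, with a median of 0.37; 5 rose and 2 fell without SR45a-1a-OE replicate 3, 1 rose without SR45a-1a-OE replicate 2 or WT replicate 1 or 3, and none rose without SR45a-1a-OE replicate 1 or WT replicate 2. Markers of the root endodermis and stele (1 rise, no fall, of 10), of phloem and xylem (no rise, 1 fall, of 12) and of guard cells (none of 11 with edgeR or DESeq2 rose, 1 fell with DESeq2 and 1 had an unadjusted p under 0.05) are given for comparison; the endodermis rise was lost without any 1 of 5 libraries, all but SR45a-1a-OE replicate 3, and the phloem and xylem fall without SR45a-1a-OE replicate 1. The part of cell type make-up in the wall results was not tested.

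**Figure D3:**
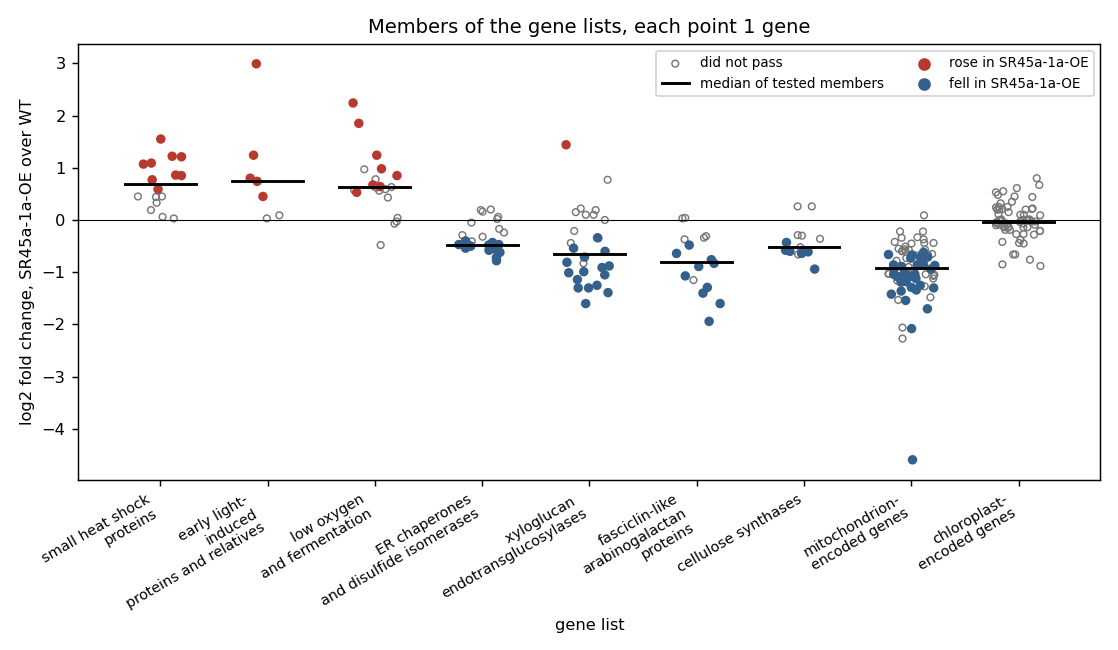
Log2 fold change of SR45a-1a-OE over WT for every tested member of 9 gene lists, 1 point per gene. Red marks genes that rose, blue genes that fell, open points those that did not pass, and bars the list medians, from 0.74 for early light-induced proteins and relatives to −0.92 for mitochondrion-encoded genes.

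Among auxin genes the families differed. Of 32 tested members of the GH3 family, which couples auxin and jasmonate to amino acids, and of the Aux/IAA repressors, 10 fell and none rose, with a median of −0.30; 1 rose without SR45a-1a-OE replicate 2. This count leaned on every library: it was 3 without SR45a-1a-OE replicate 1, 2 without replicate 2 and 16 without replicate 3, and 3, 1 and 2 without WT replicate 1, 2 and 3. BRU6 (GH3.2) kept its call in all of them, at 6.11, 6.75 and 18.2 CPM in SR45a-1a-OE, against 56.9, 51.1 and 26.2 CPM in sr45a and 75.5, 78.1 and 78.7 CPM in WT (−2.90, SE 0.38, adjusted p = 0.00271). The auxin efflux carrier gene PIN3 had 155, 161 and 201 CPM in SR45a-1a-OE, against 245, 221 and 233 CPM in sr45a and 256, 257 and 244 CPM in WT (−0.55, SE 0.11, adjusted p = 0.00999). PIN3, PIN4, PIN7 and LAX1 made up 4 falls among 15 auxin transport genes, which became 0 without SR45a-1a-OE replicate 1, 2 without WT replicate 1 and 1 without WT replicate 2. The SAUR genes, a large family of small auxin-induced transcripts, held 5 rises and 1 fall among 59, with a median of 0.05. Rises were 8.47% of those tested, near the 6.76% of all genes, and the fall 1.69%, below 8.59%. AT3G61900 of that family had 8.85, 5.78 and 5.33 CPM in SR45a-1a-OE, against 3.79, 3.76 and 3.53 CPM in sr45a and 2.70, 2.94 and 3.34 CPM in WT (1.15, SE 0.21, adjusted p = 0.00657). Of the SAUR genes 2 rose without SR45a-1a-OE replicate 1 or WT replicate 1, and 7 fell without SR45a-1a-OE replicate 3 and 0 without replicate 1 or 2 or WT replicate 2 or 3. Of 25 genes of gibberellin and brassinosteroid synthesis 4 fell, among them CPD (−0.57) and DWF1 (−0.45), and none rose; these were 0 without SR45a-1a-OE replicate 1 or WT replicate 2, 1 without WT replicate 1, 2 without SR45a-1a-OE replicate 2 and 8 without replicate 3.

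Among aquaporins, the water channels of membranes, and genes of sulfur and phosphate supply more fell than rose. Of 27 aquaporin genes 7 fell and 2 rose, with a median of −0.29; 4 fell without SR45a-1a-OE replicate 1, WT replicate 2 or WT replicate 3, while 4 rose without SR45a-1a-OE replicate 3 and 1 without WT replicate 2 or 3. DELTA-TIP, a vacuolar water channel, had 293, 297 and 384 CPM in SR45a-1a-OE, against 705, 587 and 478 CPM in sr45a and 589, 668 and 676 CPM in WT (−0.99 against WT, SE 0.16, adjusted p = 0.00416; −0.86 against sr45a, adjusted p = 0.00991). The more abundant tonoplast channels TIP2 and GAMMA-TIP fell by 0.48 and 0.45, each lost under 5 alternatives. Of 16 sulfur supply genes 4 fell and 1 rose, with 2 falls without WT replicate 2; the rise was lost without any 1 of the 6 libraries but SR45a-1a-OE replicate 3. Of 27 phosphate supply genes 7 fell and 2 rose; the falls were 2 without SR45a-1a-OE replicate 1 or WT replicate 2 and 3 without WT replicate 3, and without SR45a-1a-OE replicate 3 more rose than fell, 6 against 5. The rises were 1 without SR45a-1a-OE replicate 1 or 2 or WT replicate 3, and 0 without WT replicate 2. SQD2, which makes a sulfolipid that can replace phospholipids, had 56.2, 68.5 and 68.2 CPM in SR45a-1a-OE, against 82.2, 69.5 and 47.3 CPM in sr45a and 132, 151 and 149 CPM in WT (−1.16, SE 0.17, adjusted p = 0.00337). In sr45a 326 genes passed against WT (1.62% of those tested), 0.861% up and 0.761% down, and in this list 16 of 27 fell, and 13 members were higher in SR45a-1a-OE than in sr45a.

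Glucosinolates are the sulfur-rich defence compounds of the cabbage family. Of 30 genes of their synthesis and breakdown 10 fell (33.3%) and 2 rose (6.67%), with a median of −0.24. Among all tested genes these shares were 8.59% and 6.76%. The falls were 4 without SR45a-1a-OE replicate 1, and the rises were 0 without it, SR45a-1a-OE replicate 2 or any 1 of the WT libraries. ESM1, which modifies glucosinolate breakdown, had 62.7, 70.2 and 148 CPM in SR45a-1a-OE, against 382, 318 and 164 CPM in sr45a and 387, 392 and 454 CPM in WT (−2.13, SE 0.34, adjusted p = 0.00433). SR45a-1a-OE replicate 3 and sr45a replicate 3 were close to each other and away from WT. BGLU28, a beta-glucosidase gene, had 1.39, 2.08 and 2.46 CPM in SR45a-1a-OE, against 4.16, 3.33 and 2.93 CPM in sr45a and 7.31, 9.05 and 10.4 CPM in WT (−2.17, SE 0.23, adjusted p = 0.00138). Jasmonate synthesis and response held 7 falls and no rise among 27, with a median of −0.05; the count was 1 without SR45a-1a-OE replicate 1 or WT replicate 2, 3 without WT replicate 1 and 4 without SR45a-1a-OE replicate 2 or WT replicate 3.

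Other stress genes rose. The early light-induced proteins and their relatives are thylakoid proteins thought to protect the photosystems when chlorophyll is in excess. They held 5 rises and no fall among 7 (71.4% against 6.76% of all genes), with a median of 0.74. The rises were 3 without SR45a-1a-OE replicate 1 or any 1 of the WT libraries. Of the 7 genes 1 was also higher than in sr45a. ELIP2 had 6.71, 8.32 and 3.90 CPM in SR45a-1a-OE, against 2.59, 3.70 and 4.28 CPM in sr45a and 0.709, 0.735 and 0.928 CPM in WT (log2 fold change 2.99, SE 0.32, adjusted p = 0.00138), so sr45a was also well above WT. OHP2, a short relative, had 84.8, 71.1 and 63.1 CPM in SR45a-1a-OE, against 46.5, 48.0 and 60.0 CPM in sr45a and 38.9, 42.1 and 45.2 CPM in WT (0.80, SE 0.13, adjusted p = 0.00498); it overlaps an antisense RNA gene, and the strand used in counting is not given. Genes of light harvesting, the photosystems and carbon fixation held 10 rises and 1 fall among 54 but a median of 0.01; 3 rose without SR45a-1a-OE replicate 1 or WT replicate 2, 4 without WT replicate 1 and 5 without WT replicate 3. The fall was lost in these fits and without SR45a-1a-OE replicate 2, and 4 fell without replicate 3. GAPA of the carbon fixation cycle had 1753, 1747 and 1533 CPM in SR45a-1a-OE, against 1152, 1003 and 1456 CPM in sr45a and 978, 986 and 1132 CPM in WT (0.70, adjusted p = 0.0104). Of 10 leaf mesophyll markers 3 rose (0 without WT replicate 2) and none fell, and their summed level was 44833 to 51274 CPM in SR45a-1a-OE, against 44004 to 49519 CPM in sr45a and 38039 to 44666 CPM in WT; their part in these rises was not tested.

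Genes of low oxygen and fermentation, which keep glycolysis running without respiration, held 8 rises and no fall among 20, with a median of 0.63. The count was 4 without SR45a-1a-OE replicate 1 or WT replicate 2 and 5 without WT replicate 1. ADH1, alcohol dehydrogenase, had 33.2, 27.9 and 24.5 CPM in SR45a-1a-OE, against 16.7, 26.5 and 20.6 CPM in sr45a and 13, 14.2 and 8.91 CPM in WT (1.24, SE 0.20, adjusted p = 0.00450). The pyruvate decarboxylase gene AT4G33070 had 14.7, 19.1 and 7.19 CPM in SR45a-1a-OE, against 6.61, 7.62 and 13.5 CPM in sr45a and 2.35, 3.58 and 2.69 CPM in WT (2.24, SE 0.36, adjusted p = 0.00460). ERF71, a factor that is itself stabilised in low oxygen, was near 1 CPM in SR45a-1a-OE and rose by 1.85 (adjusted p = 0.00837). In sr45a 1 gene of this list rose and 1 fell against WT, and its median of 0.47 was not far from that of SR45a-1a-OE; both comparisons share the WT libraries.

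Glutathione transferases, which couple toxic compounds to glutathione, held 7 rises and no fall among 38, with a median of 0.29; 2 rose without SR45a-1a-OE replicate 1 and 3 without WT replicate 1 or 2. GSTU19 had 2201, 1673 and 1375 CPM in SR45a-1a-OE, against 1471, 1429 and 1887 CPM in sr45a and 801, 946 and 948 CPM in WT, so both altered genotypes lay above WT (0.96 over WT, SE 0.18, adjusted p = 0.00693; 0.13 over sr45a, adjusted p = 0.682). Among 40 genes of the response to abscisic acid and to dehydration 9 rose and 3 fell, with a median of 0.12; 5 rose without WT replicate 2, and the falls were 0 without SR45a-1a-OE replicate 1 or WT replicate 3 and 1 without SR45a-1a-OE replicate 2 or WT replicate 2. LTI30, a dehydrin gene, had 59.8, 45.5 and 37.9 CPM in SR45a-1a-OE, against 19.8, 26 and 30.2 CPM in sr45a and 21, 21.5 and 22.4 CPM in WT (1.14 over WT, SE 0.17, adjusted p = 0.00390; 0.91 over sr45a, adjusted p = 0.0124). Of 25 iron supply genes 5 rose and 2 fell. The iron store gene FER4 had 95.9, 88.2 and 87.0 CPM in SR45a-1a-OE, against 37.4, 37.1 and 48.0 CPM in sr45a and 46.7, 51.7 and 57.6 CPM in WT; it was high in SR45a-1a-OE alone (0.80 over WT, SE 0.12, adjusted p = 0.00373; 1.15 over sr45a, adjusted p = 7.87e-04). The ferric reductase gene FRO3 fell by 0.78, and the 2 falls became 1 without any single one of SR45a-1a-OE replicates 1 and 2 and the WT libraries.

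**Figure D4:**
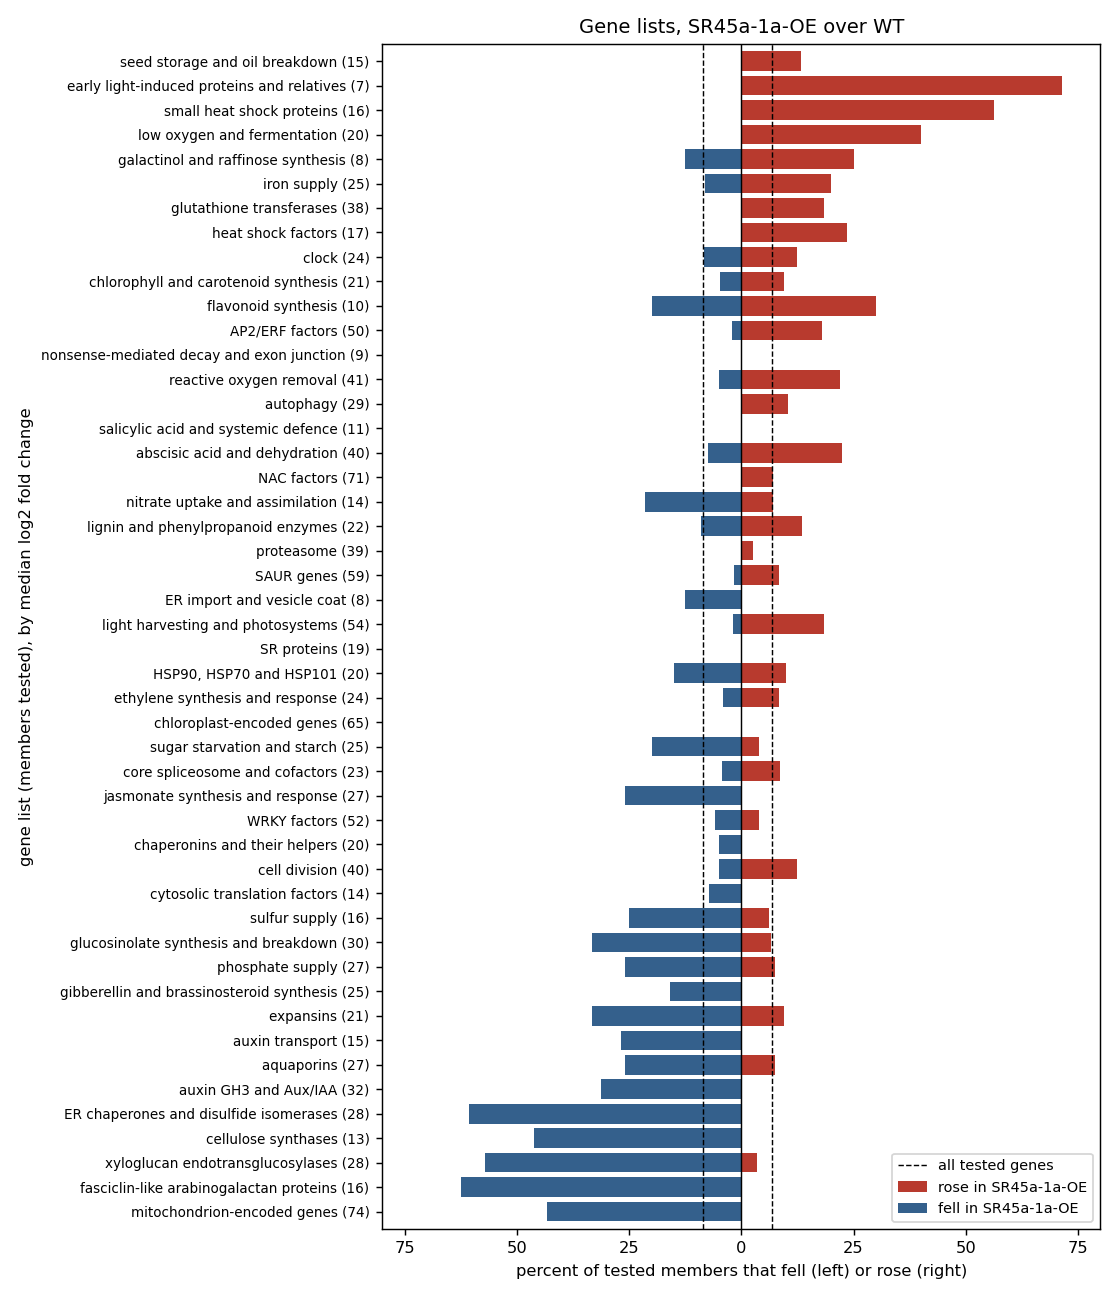
Share of the tested members of 48 gene lists that fell (blue, left) or rose (red, right) in SR45a-1a-OE, with the number tested in brackets and lists ordered by median log2 fold change. Dashed lines mark the shares over all tested genes, 8.59% that fell and 6.76% that rose; small heat shock proteins and ER chaperones lie on opposite sides.

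Many genes encoded in the mitochondrion fell in SR45a-1a-OE, 43.2% of the list against 8.59% of all tested genes. Of 74 tested genes whose locus name begins with ATMG 32 fell and none rose, with a median of −0.92; of all 76 tested genes placed on the mitochondrial genome 33 fell and none rose. Of the 74, 73 had a log2 fold change below 0. Of 65 tested chloroplast genes none passed in edgeR or DESeq2, 0 had an unadjusted p under 0.05, and their median was −0.03. Mitochondrial genes took 0.04873%, 0.04743% and 0.06993% of the counts in SR45a-1a-OE, 0.1288%, 0.1545% and 0.08829% in sr45a and 0.1597%, 0.08969% and 0.0927% in WT. Their summed level was thus lower in every SR45a-1a-OE library than in any other, and 51 of them were lower than in sr45a. ATMG00630 had 7.31, 8.97 and 12.7 CPM in SR45a-1a-OE, against 29.6, 32.3 and 19.5 CPM in sr45a and 23.9, 23.2 and 24.3 CPM in WT (log2 fold change −1.30, SE 0.21, adjusted p = 0.00445). ATMG01370 and ATMG01220 fell by 1.08 and 1.34. The count of 32 was 5, 14 and 44 without SR45a-1a-OE replicate 1, 2 and 3, and 16, 10 and 12 without WT replicate 1, 2 and 3, while the median stayed between −1.10 and −0.79. How libraries were depleted of ribosomal RNA or selected for poly(A) was not given, and organelle transcripts depend on that step; its part was not tested.

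Genes of the splicing machinery were examined as 3 lists, against 15.3% called over all genes. Leaving out SR45a itself, which is not in the list, none of 19 SR protein genes passed in edgeR, 1 had an unadjusted p under 0.05 and 1 rose with DESeq2; the median was −0.00. Without SR45a-1a-OE replicate 3, 1 rose and 1 fell. SR30, a close relative of SR34, came nearest, at 667, 571 and 528 CPM in SR45a-1a-OE, against 457, 478 and 539.9 CPM in sr45a and 462, 453 and 469.5 CPM in WT (log2 fold change 0.35, SE 0.11, adjusted p = 0.0588). Of 23 genes of the core spliceosome and its cofactors 2 rose (8.70%, against 6.76% of all genes) and 1 fell (4.35%, against 8.59%), a share near that over all genes; the rises were 1 without WT replicate 3 or SR45a-1a-OE replicate 2, 0 without WT replicate 1, WT replicate 2 or SR45a-1a-OE replicate 1, and the fall was lost without SR45a-1a-OE replicate 1 or WT replicate 3. The rises were ATU2AF35A, the small subunit that reads the end of the intron (0.37, adjusted p = 0.0405), and EMB2770, also called STA1, a pre-mRNA splicing factor (0.61, adjusted p = 0.0417), and the fall was the RNA-binding protein gene CCR1, also called GRP8 (−0.45, adjusted p = 0.0187). None of 9 genes of nonsense-mediated decay and the exon junction complex passed with edgeR or DESeq2, 2 had an unadjusted p under 0.05, and the median was 0.16.

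Differences in which transcript a gene used were few. Usage is described as each transcript's share of the FPKM of its gene's annotated transcripts. It was tested on the rounded estimated counts with edgeR's diffSpliceDGE, with Simes p-values per gene. That test compares a transcript's change with that of its gene, so its p-values do not test the printed percentages themselves. Of 7888 genes with at least 2 tested transcripts 16 passed, or 0.203%; 437 had an unadjusted p under 0.05. In 9 of the 16 a tested transcript was listed at 0 in every library of 1 group and not in the other. As levels, 14 of 35982 transcripts passed (0.0389%), 7 up and 7 down, where 4312 had an unadjusted p under 0.05. The estimates were noisier than gene counts: the median SD of log2 values between WT libraries was 0.44 for transcripts and 0.14 for genes. Among SR proteins 0 of 13 testable genes passed in diffSpliceDGE, and 0 had an unadjusted p under 0.05.

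Of the 8 usage genes described, the first is ALPHA-SNAP2 (AT3G56190), which encodes a protein that takes apart membrane fusion complexes. AT3G56190.2 held 16.5, 6.85 and 14.7% of the gene in SR45a-1a-OE and was listed at 0 in every sr45a and WT library (adjusted p = 3.78e-04). The gene's level did not differ (log2 fold change −0.03, adjusted p = 0.873). AT3G56190.2 and AT3G56190.1 end an intron 4 bases apart, and the coding length is 723 bases in AT3G56190.2 and 870 bases in AT3G56190.1. The window around the end of the intron shows the choice (chr3:20847595-20847648, minus strand, TAIR10.1), with the 4 bases kept only in AT3G56190.1 in capitals.
ALPHA-SNAP2: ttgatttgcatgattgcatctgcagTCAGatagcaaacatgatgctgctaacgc

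In the sugar transporter family gene AT1G67300, AT1G67300.1 held 1.53, 1.11 and 1.65% in SR45a-1a-OE, 58.9, 71.2 and 1.24% in sr45a and 69.1, 58.6 and 58.2% in WT, while AT1G67300.5 held 62.1, 64.2 and 71.8% in SR45a-1a-OE, 21.2, 17.8 and 54.1% in sr45a and 22.1, 26.5 and 24.4% in WT. All SR45a-1a-OE libraries had little AT1G67300.1, and so had sr45a replicate 3 (adjusted p = 0.00854, lost without any 1 of the SR45a-1a-OE libraries). The transcripts differ at a donor site, where AT1G67300.1 keeps 13 more bases, shown in capitals in the window chr1:25194074-25194136 on the minus strand.
AT1G67300: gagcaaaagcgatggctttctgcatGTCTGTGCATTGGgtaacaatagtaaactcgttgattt
In ATATH8 (AT2G39190), annotated as an ABC2 homolog kinase family gene, AT2G39190.1 held 69.8, 71.5 and 73.3% in SR45a-1a-OE, 88.1, 71.5 and 71.2% in sr45a and 3.05, 2.13 and 5.34% in WT. Both altered genotypes thus used AT2G39190.1 and WT used AT2G39190.2 (adjusted p = 0.0211, lost without any 1 of the WT libraries). They differ at 2 acceptor sites, at each of which AT2G39190.2 keeps 4 more bases; the first is shown, with those bases in capitals, in the window chr2:16352601-16352654 on the plus strand.
ATATH8: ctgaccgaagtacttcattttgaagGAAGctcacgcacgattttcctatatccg

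**Figure D5:**
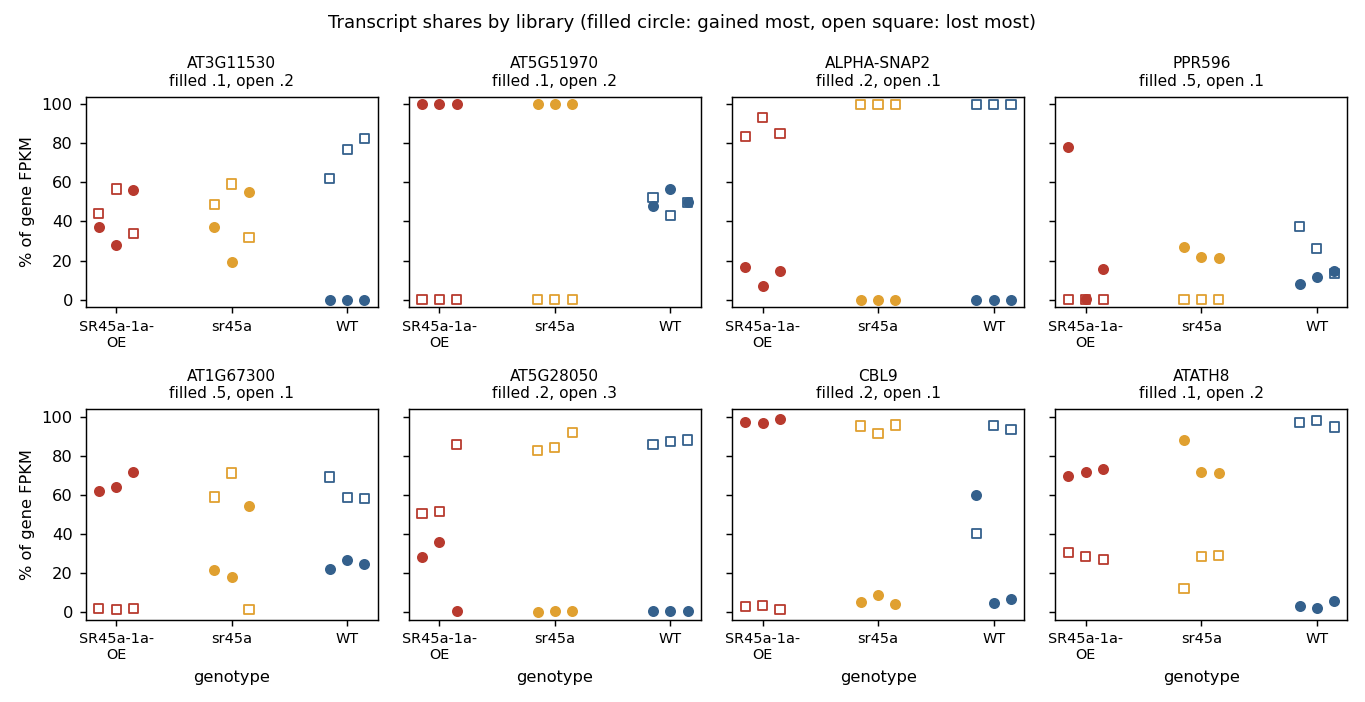
Share of the gene's annotated FPKM held by the transcript that gained most (filled circles) and the one that lost most (open squares) in each library, for 8 genes with a usage difference. SR45a-1a-OE stands on the left, sr45a in the middle and WT on the right; in ALPHA-SNAP2 the new transcript appears in SR45a-1a-OE alone, and in ATATH8 both altered genotypes differ from WT.

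The same contrast between both altered genotypes and WT was seen in AT3G11530, where AT3G11530.1 held 37.3, 27.9 and 56.0% in SR45a-1a-OE and 37.0, 19.0 and 54.9% in sr45a and was listed at 0 in WT (adjusted p = 3.00e-05). It was seen too in AT5G51970, where AT5G51970.2 was listed at 0 in SR45a-1a-OE and sr45a and held 52.2, 43.2 and 49.9% in WT (adjusted p = 3.00e-05). In PPR596, AT1G80270.1 was listed at 0 in both altered genotypes and held 37.3, 26.1 and 13.4% in WT (adjusted p = 7.08e-04, lost with limma's diffSplice). AT1G80270.5 of PPR596, the transcript that gained most, was scattered at 78.1, 0.133 and 15.7% in SR45a-1a-OE, between 21.4 and 26.9% in sr45a and between 7.78 and 14.8% in WT. In CBL9, a calcium sensor gene, SR45a-1a-OE and sr45a were far apart, with AT5G47100.2 at 97.2, 97.0 and 98.9% in SR45a-1a-OE, 4.81, 8.49 and 4.20% in sr45a and 60.0, 4.65 and 6.59% in WT; its call was lost under 6 alternatives, and WT replicate 1 lay between. AT5G28050 was called on SR45a-1a-OE replicates 1 and 2 alone, with AT5G28050.2 at 28.3, 35.7 and 0.380%, against 0.107, 0.222 and 0.268% in sr45a and 0.274, 0.189 and 0.234% in WT; its call was lost under 8 of 11 alternatives, the replicate block and limma's diffSplice among them.

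Some transcripts changed as levels while their gene did not. AT4G36730.2 of GBF1, a G-box binding factor gene, had 0.662, 1.52 and 0.733 FPKM in SR45a-1a-OE, against 15.6, 14.9 and 18.9 FPKM in sr45a and 17.2, 14 and 17.1 FPKM in WT (log2 fold change −4.03, SE 0.35, adjusted p = 0.0208). For the whole gene it was 0.01 (adjusted p = 0.967). AT4G33580.1 of BCA5, a mitochondrial carbonic anhydrase gene, had 1.72, 1.88 and 2.31 FPKM in SR45a-1a-OE, against 13.1, 13.7 and 12 FPKM in sr45a and 13.4, 11.0 and 10.9 FPKM in WT (−2.55, SE 0.17, adjusted p = 0.00604), with the gene at −0.19 (adjusted p = 0.147). In both genes sr45a lay near WT. Neither gene passed in the usage test, and both overlap a neighbouring gene, with the strand used in counting not given.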

How the data were processed

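RNA from 9 seedling samples, 3 per genotype, was sequenced as 150-base read pairs, per the labels' protocols, which name fastp for read filtering. The aligner, the counter, the genome build, library selection and strandedness are not given in the sources used here, so a gene and a neighbour that overlaps it cannot be told apart. The authors deposited gene counts, estimated counts per transcript and FPKM (fragments per kilobase, scaled to library size) for both; the units follow the file headers and the values. The tables hold 27218 genes and 68898 transcripts, of which 21725 carry no gene identifier and were left out of the main transcript tests. Gene coordinates were matched to RefSeq TAIR10.1, where 26949 of 26956 loci found had the same start and end, and symbols, exons and promoter sequences were taken from that annotation and genome.

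Deposited gene counts were fitted for all 9 libraries with edgeR 4.0.16 in R 4.3.3 (quasi-likelihood F test, TMM, filterByExpr with a minimum count of 10 and total of 15), genotype as the only term, and Benjamini-Hochberg adjusted p under 0.05 over all tested genes. Estimated counts were rounded to whole numbers and tested only among themselves; in genes with 1 transcript they were larger than the gene counts by a median ratio of 3.88. Library totals were 18036195 to 21864604 counts. The fitting scripts were checked on simulated data with a spread common to all genes or transcripts, which does not test the calls made here.

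Genes named besides SR45a were those passing with a log2 change of at least 1, keeping their call without each of the 6 libraries, not overlapping between groups and averaging at least 20 CPM in the higher group (12 of smallest p each way); all-or-none genes; the 3 called members of smallest p in each list, or the 2 most abundant where none was called; the 5 most abundant called genes each way; and 8 usage genes. Other list members were named after their values were seen. The comparison, the 48 gene lists and the 7 marker lists were chosen with earlier results of these data known. Alternatives used DESeq2 1.42.0, limma 3.58.1 (on log2 FPKM with a pseudocount of 1 or 0.1, and diffSplice), other filters and scaling, only 6 libraries, a replicate block and each library left out.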

Additional observations from a re-analysis of the deposited data

How the results depend on the processing

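The count of genes that passed in SR45a-1a-OE against WT, 3084, was 1842 with the replicate block, 680 with a log2 fold change of at least 1 required as well, and 975 to 3944 when 1 of the 6 libraries was left out. It stayed within 1.5 times with other scaling, other filters, DESeq2 (3706), limma on FPKM and only the 6 libraries (2613). Of the 975 genes called without SR45a-1a-OE replicate 1, 956 were among the 3084, and all 956 kept their direction. Against sr45a the count of 1459 was 557 with only the 6 libraries compared, 575 with the replicate block, 270 to 2653 with 1 library left out and 4160 without replicate 3 of SR45a-1a-OE and of sr45a, which gave 4524 against WT; this setting and those against WT without each sr45a library were chosen after seeing the data. The 14 transcripts were 8 with only the 6 libraries, 2 with the replicate block and 12 to 28 with 1 library left out. The 16 usage genes were 41 with only the 6 libraries, 9 with the replicate block, 28 with limma's diffSplice and 13 to 25 with 1 library left out. The causes were not tested. The log2 fold change of SR45a was 1.33 to 1.44 over its alternatives, and 1.40 with the replicate block. Of the 159 named genes that passed, 87 kept their call under all 18 alternatives and none changed direction under any; 64 lost it without SR45a-1a-OE replicate 1, 59 without WT replicate 2 and 32 with the replicate block. Whether the replicate numbers pair the samples could not be settled. Deviations of same-numbered SR45a-1a-OE and WT libraries correlated at −0.053, −0.138 and 0.186 across genes, which are not independent replicates. Other SR45a-1a-OE and WT pairs correlated at −0.279 to 0.336. Deviations within 3 libraries depend on each other, so the values cannot show whether a batch was shared. With 3 libraries a group, genes of low count and transcripts, whose estimates vary more, could be called only at large differences.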

Other observations

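Oleosin and seed storage genes are made in maturing seeds. Of 15 tested genes of seed storage and oil breakdown 2 rose in SR45a-1a-OE and none fell, with a median log2 fold change of 1.88, while 13 rose in sr45a against WT. OLEO1, an oil body protein gene, had 0.298, 0.462 and 0.139 CPM in SR45a-1a-OE, against 1.53, 0.952 and 0.547 CPM in sr45a and 0.0443, 0.0459 and 0 CPM in WT. None of the list rose in SR45a-1a-OE without SR45a-1a-OE replicate 1 or 2 or WT replicate 1 or 2, 1 rose without WT replicate 3 and 4 without SR45a-1a-OE replicate 3.

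By class of gene, 4 of 29 tested small nucleolar RNA genes rose and none fell, with a median log2 fold change of 0.44, and 10 of 271 long non-coding RNA genes rose and 16 fell. These are 13.8% and 9.59% of the genes tested in each class, near and below the 15.3% over all genes. In a fit of all transcripts together, 10 of the 17835 tested ones without a gene identifier passed, 6 up and 4 down.

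Among called transcripts of genes with 1 tested transcript, the gene and transcript tables differed at AT5G16870 and AT4G32050. AT4G32050.1 lay at 4.23 to 20.8 FPKM in SR45a-1a-OE and 0.00545 to 0.00557 FPKM in WT. Its log2 fold change was 11.11 (adjusted p = 0.0490 in edgeR), against 0.14 for the gene count (adjusted p = 0.457). AT4G39840.1 passed at 11.59 (adjusted p = 0.0141 in edgeR), but its gene had no test result. AT2G01422, AT3G01345, ADT4 and AT3G05945 had close log2 fold changes in both tables. AT5G16870.1 had 0.141, 0.174 and 0.295 FPKM in SR45a-1a-OE, against 7.80, 7.87 and 6.92 FPKM in sr45a and 7.35, 5.61 and 5.77 FPKM in WT (log2 fold change −4.90, adjusted p = 0.00890 in edgeR), while for the gene count it was −0.03 (adjusted p = 0.911).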
